A study of Mus musculus with 12 samples.

Results

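Mouse hepatic stellate cells with and without a deletion of Pdgfrb, which encodes the beta-type PDGF (platelet-derived growth factor) receptor, were compared in culture without added ligand. The comparison took the arrays whose labels give no PDGF-B treatment, which were 6 of the 12 arrays of the series: 3 labelled knockout and 3 labelled wild type. Each array held the RNA of 1 cell preparation, named by the code in its title. The knockout preparations were P524, P338 and P522, and the wild-type preparations were P11, P393 and P530. The arrays were Illumina BeadChips read in 1 colour, which report a probe's brightness as an intensity.

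All of the mice carried floxed alleles of Pdgfrb, on a 129S4/SvJae background per the labels. The deletion was made with Cre recombinase under the promoter of glial fibrillary acidic protein (GFAP), introduced from a transgenic FVB line. Wild type here means homozygous floxed without Cre, and knockout means homozygous floxed with Cre. Loss of the receptor and inheritance of the transgene from the FVB line cannot be told apart in this design. Liver cells were released with pronase and collagenase, enriched on a Percoll density gradient and grown in medium with fetal bovine serum. The cultures compared here then received serum-free medium with the albumin vehicle alone, and total RNA came from frozen cell pellets. The labels give neither the animals' age, nor the days in culture, nor the time in vehicle, and what a code refers to, be it 1 mouse, pooled mice or a dish of cells, is not stated. P-values therefore measure the spread between these preparations, part of which may be technical.

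Stellate cells are the liver's pericytes and store vitamin A in the healthy organ. After injury or on plastic they become myofibroblasts, which express smooth muscle actin and lay down collagen. The beta receptor is a receptor tyrosine kinase that appears as they activate; dimers of PDGF-B bind it and signal through the ERK and PI3-kinase pathways to growth, survival and migration. Without added ligand, the comparison asks how the RNA of cells labelled as lacking the receptor differed at baseline.

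The targeted gene itself had nearly the same mean signal in both groups. On the log2 scale of normalized intensity, used throughout, Pdgfrb measured 7.17 in P524, 6.42 in P338 and 7.61 in P522, the arrays labelled knockout. In the wild type it measured 6.68 in P11, 6.78 in P393 and 7.60 in P530. The groups overlapped over their whole range. The difference, knockout minus wild type, was 0.04 (SE 0.374, 95% interval -0.87 to 0.96, exact permutation p = 0.9) and -0.05 under median scaling. The interval leaves room for nearly a 2-fold change in either direction. The gene had 1 probe, and where it lies relative to the deleted part is not known here, so it does not check the labels. Throughout, knockout means the arrays so labelled, and values of 3 preparations per genotype are given in the order used here.

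Cd300ld was lower in the knockout preparations, and it was the only 1 of 12043 genes tested to pass the threshold, an adjusted p under 0.05 in limma's moderated test with Benjamini-Hochberg adjustment. That is 0.0083% of genes called lower and 0% called higher. For all other genes the smallest adjusted p was 0.9996. At an unadjusted p under 0.05 there were 109 genes with a higher mean in the knockout (0.905%) and 75 with a lower mean (0.623%), together 184, where 602 would be expected with no difference at all. Without P522 these counts were 441 and 241. In 432 genes (3.59%) all knockout values lay above all wild-type values, and in 279 (2.32%) all lay below. Groups are called non-overlapping below in this sense, and only Cd300ld is described as having fallen. With no difference at all, exact permutation of the arrays would separate the groups completely, in either direction, for a share of 0.1 of genes. The observed genes, 711 together (5.9%), were fewer than that share. A lack of overlap alone therefore does not mark a gene as differing between the genotypes.

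The differences were small for nearly all genes. The knockout mean lay within 0.5 log2 units of the wild-type mean for 98.8% of genes. The median difference was 0.01, and 53.7% of differences were positive, a share that became 40.6% when arrays were scaled by their medians in place of quantile normalization. The 95% interval of the difference had a median half-width of 0.304 log2 units, and for 11078 genes (92%) it lay wholly between -1 and 1. For 7896 genes (65.6%) it lay between -0.5 and 0.5. These shares hold on this scale, where background correction added an offset of 50 and the differences and intervals of dim genes are compressed. A difference of at least 1 log2 unit, which is a doubling or a halving, was measured for 7 genes in the higher direction (0.0581%) and 10 in the lower direction (0.083%).

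**Figure D1:**
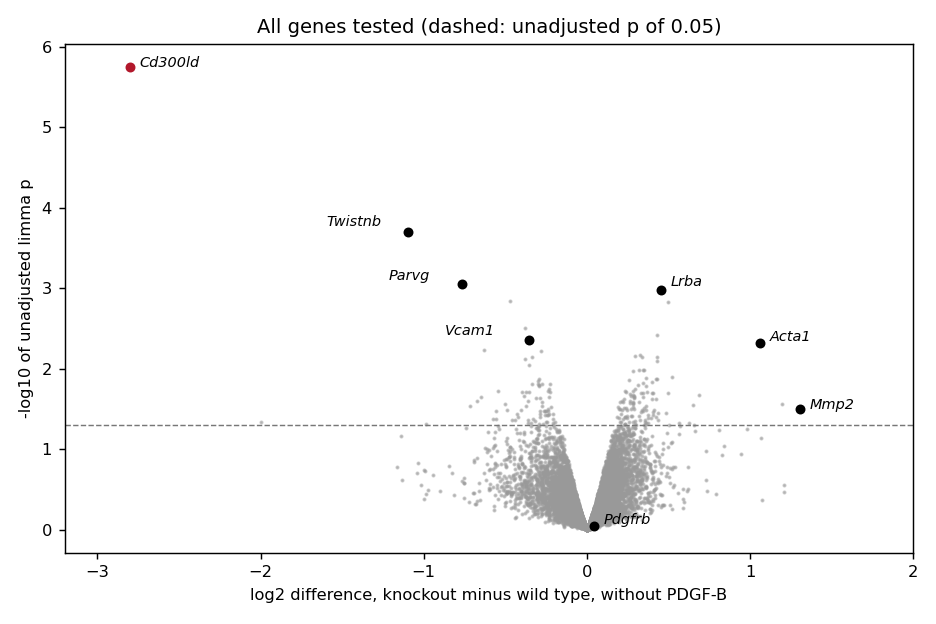
Each point is 1 of the 12043 genes tested. The horizontal axis gives the log2 difference between the knockout and wild-type means (3 arrays each, without PDGF-B), and the vertical axis the negative log10 of the unadjusted limma p. Cd300ld (red, at -2.80) stands alone at the upper left, and Pdgfrb lies near the origin at 0.04.

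The preparations varied more within a genotype than between the genotypes. Over all genes, 11.6% of the sum of squares lay between genotypes (1 degree of freedom, against 4 within them), 58.2% lay among the knockout preparations and 30.2% among the wild-type preparations. A range of at least 1 log2 unit was found within the knockout group for 1065 genes and within the wild-type group for 365. The least similar pair of arrays was P524 and P522, both knockout (Pearson's r over genes 0.943), with 882 genes at least 1 log2 unit apart. The most similar pair crossed the genotypes, knockout P338 and wild-type P393 (r = 0.990), with 53 such genes. The mean absolute deviation from the average of the 6 arrays was 0.22 in P524 and 0.181 in P522, against 0.12 to 0.142 in the other 4.

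Cell type markers showed where P524 and P522 differed from the rest. Of 20 pericyte and stellate markers, 11 were above background on all 6 arrays, among them Pdgfrb, Des, Acta2, Col1a1 and Vim, while Lrat, which makes the stored vitamin A ester, and Rgs5 were above it on fewer than 3. Their summed normalized intensity ran from 25290 to 27590 in the knockout and from 24150 to 29800 in the wild type. That sum is weighted to the brightest marker, Acta2, at 13.54 to 14.05 on the log2 scale. The mean log2 level of the 16 measured markers was 8.41 in P524, 8.14 in P338 and 8.25 in P522. In the wild type it was 7.99 in P11, 8.26 in P393 and 8.23 in P530. Gfap, whose promoter drives Cre, was below background on at least 4 of the 6 arrays.

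Macrophage markers were well represented in all cultures. Of 24 on the array, 20 were above background on all 6 arrays, among them Csf1r, C1qa and Adgre1, while the Kupffer cell genes Clec4f and Cd5l were above it on fewer than 3. Their summed intensity was 47380 to 77210 in the knockout, lowest in P524, and 67840 to 75940 in the wild type. The mean log2 level of the 21 measured markers was 9.38 in P524, 10.17 in P338 and 10.15 in P522, against 10.26, 10.23 and 10.08 in the wild type. P524 alone lay below the wild-type range, and P338 and P522 lay inside it.

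Mesothelial markers such as Msln, Upk3b and Krt8 set P522 apart. Of 13 on the array, 12 were above background on all arrays. Their mean log2 level was 8.96 in P524, 9.11 in P338 and 6.98 in P522, and 8.35 to 8.42 in the wild type, and the summed intensity was 2798 to 18440 in the knockout and 10220 to 10930 in the wild type. Of 22 hepatocyte markers, 4 were above background on all arrays, and Alb and Apoa1 were not among the 9 above it on at least 3. None of 5 blood markers on the array, 2 of 14 lymphocyte markers and 2 of 17 neutrophil and dendritic markers were above it throughout. In bulk RNA, fewer cells of a type and less RNA per cell cannot be told apart.

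**Figure D2:**
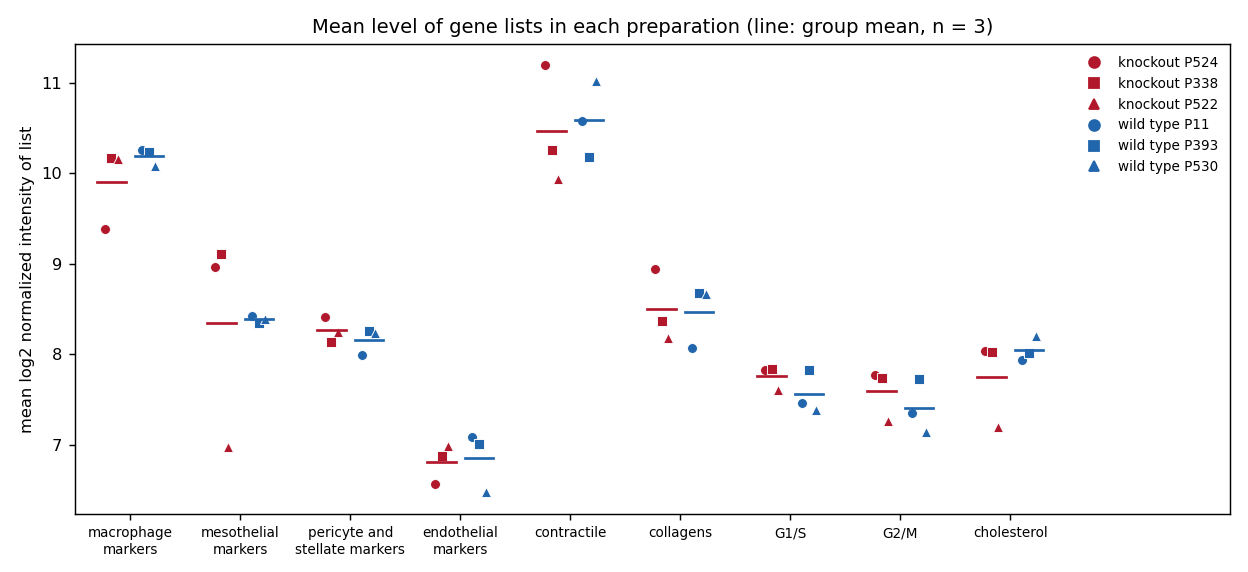
Each symbol is 1 preparation without PDGF-B (red knockout, blue wild type). The vertical axis is the mean log2 normalized intensity over the measured genes of each list on the horizontal axis, and lines are group means of 3. P524 is lowest for macrophage markers (9.38) and P522 for mesothelial markers (6.98) and cholesterol genes (7.19).

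Cd300ld, which encodes an activating member of the CD300 family of immunoglobulin receptors found on myeloid cells, had log2 intensities of 6.16 in P524, 6.46 in P338 and 6.50 in P522. The wild-type values were 9.21 in P11, 9.40 in P393 and 8.92 in P530. All of the knockout values were low and all of the wild-type values high, with a gap wider than either group's range. The mean fell by 2.80 log2 units (SE 0.157, 95% interval -3.19 to -2.42), 6.97-fold, with an adjusted p of 0.0215 by limma. The knockout values were dim, where differences are compressed, so the size of the fall depends on the processing. It was -3.48 with a background correction offset of 16 in place of 50, and -2.38 with the authors' normalized values. An exact permutation test of this gene alone gave p = 0.1, the smallest that 3 against 3 allows.

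The single Cd300ld probe was above background on all 6 arrays. The other array of each preparation, from cells given PDGF-B, gave 6.05, 6.52 and 6.72 in the knockout and 9.10, 9.48 and 8.82 in the wild type. These arrays are repeat measurements of the same preparations and not further replicates. The change of the genotype difference with ligand was 0.10 log2 units (limma's interaction, adjusted p = 0.999). Beside these values stand the mean macrophage marker levels given above, lowest in P524 and inside the wild-type range in P338 and P522, and their part in the difference was not tested. Without P524 the difference was -2.70 (adjusted p = 0.0931, a fit with 2 knockout arrays). Leaving out any other single array also took the adjusted p past the threshold, to between 0.0606 and 0.37, with differences of -2.93 to -2.69.

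The rest of the CD300 family was mostly lower but far less so. Of 12 family entries, 6 were measured, of which 5, Cd300ld among them, had a lower knockout mean. In 3 of them, Cd300ld included, the knockout lay wholly lower, as it did in 2.32% of all genes. Cd300lf, an inhibitory member, was close to background, with 5.97, 6.12 and 6.18 in the knockout and 6.28, 6.38 and 6.33 in the wild type. Those values did not overlap, and the difference was -0.24 (SE 0.0859). Cd300ld3 had 6.36, 7.38 and 7.24 in the knockout and 8.12, 7.53 and 7.55 in the wild type, again without overlap, a difference of -0.74 (SE 0.311). Its probes disagreed, since the 2 dimmer kept probes gave -0.15, with overlap, and 0.15. Cd300a, the family's best known inhibitory receptor, differed by -0.36 (SE 0.471) and ranged widely in the knockout, from 6.75 in P524 to 8.36 in P522. Adjusted p was 1 for each of these. Without P524 the median of the family, Cd300ld included, went from -0.32 to -0.09. Cd300a then differed by 0.14 and Cd300lb by 0.01.

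The genes next to Cd300ld on its chromosome were compared by their order in the RefSeq table. On one side Cd300lb differed by -0.28 (SE 0.313), and on the other Cd300c2 by 0.34 (SE 0.307). Both sets of groups overlapped. Cd300c, Cd300ld2 and Cd300ld4, also within 3 genes of it, had no named probe here.

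Twistnb, also named Polr1f, encodes a subunit of RNA polymerase I, the enzyme that transcribes ribosomal RNA genes. Its brighter probe gave 6.0, 6.19 and 6.45 in the knockout and 7.23, 7.46 and 7.24 in the wild type. Its other probe gave 5.98, 6.02 and 6.0 against 7.42, 7.52 and 7.38. With either probe the groups stood apart, and the second probe was nearly flat within each genotype. Its knockout values lay close to background, where differences between arrays are compressed.

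The difference was -1.10 (SE 0.138, 95% interval -1.43 to -0.76) for the probe that stands for the gene, with an adjusted p of 1 by limma over genes. For the second probe it was -1.44 (SE 0.0685), with an adjusted p of 0.015 when each of the 22841 kept probes was tested. With all 12 arrays and the preparation as a replicate block, the gene itself passed, at -1.10 and an adjusted p of 0.0102. Twistnb thus depended on the probe and on the model, and does not count as called. Exact permutation over the 6 samples gave p = 0.1.

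Other parts of the RNA polymerase I machinery gave small differences, most of them positive. Beside Twistnb, 16 of 21 listed genes were measured, of which 13 had a higher and 3 a lower knockout mean, with a median difference of 0.05 and none past the adjusted threshold. Polr2f, a subunit shared by the nuclear polymerases, differed by 0.40 (SE 0.13), and its groups did not overlap. Polr1c differed by 0.20 (SE 0.107) and Ubtf, a factor that binds ribosomal DNA promoters, by 0.18 (SE 0.103). Of 17 ribosome biogenesis genes, 7 were higher and 10 lower, with Nop58, a core protein of small nucleolar ribonucleoprotein particles, at -0.31 (SE 0.132). Of the nearest genes to Twistnb by order, Cdhr3 differed by -0.17 (SE 0.0732), Ferd3l by 0.04 (SE 0.0931) and Twist1 by 0.26 (SE 0.235). Cdhr3 was above background on 0 of 3 knockout arrays and Ferd3l on 2 of 3 in each genotype, so both lay close to background. Atxn7l1, Efcab10 and Hdac9, also within 3 genes of Twistnb, had no measured value.

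**Figure D3:**
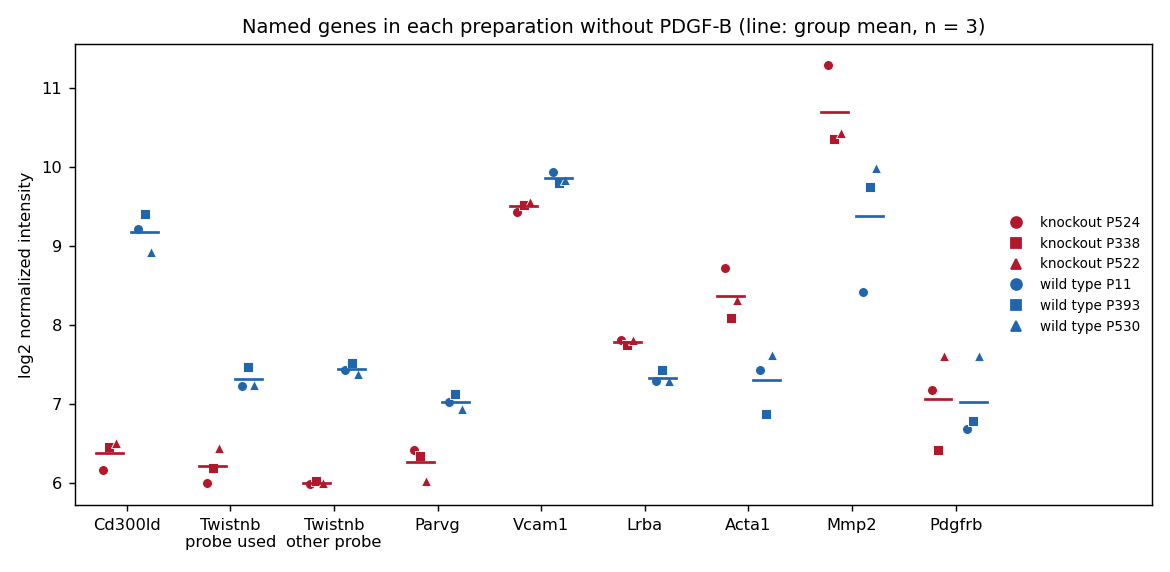
The vertical axis is log2 normalized intensity for the genes or probes on the horizontal axis, in each preparation without PDGF-B (red knockout, blue wild type, lines are means of 3). Cd300ld lies between 6.16 and 6.50 in the knockout and between 8.92 and 9.40 in the wild type, both Twistnb probes are separated, and Pdgfrb overlaps fully.

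Like Pdgfrb, the other ligands and receptors of the PDGF system overlapped between genotypes. Of 12 measured, 6 were higher and 6 lower, with a median difference of 0.00. Pdgfra, the alpha receptor, had 7.82, 7.89 and 8.07 in the knockout and 8.10, 9.13 and 7.38 in the wild type (difference -0.28, SE 0.42). Among ligands, Pdgfa differed by -0.09 (SE 0.133), Pdgfb by 0.19 (SE 0.346) and Pdgfc by 0.20 (SE 0.143). Pdgfb was highest in P522, at 8.79 against 7.44 to 7.96 in the other 5 preparations. Nrp1, a co-receptor for several growth factors, differed by -0.52 (SE 0.399) and spanned 8.60 to 10.27 within the knockout against 9.85 to 10.00 in the wild type.

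**Figure D4:**
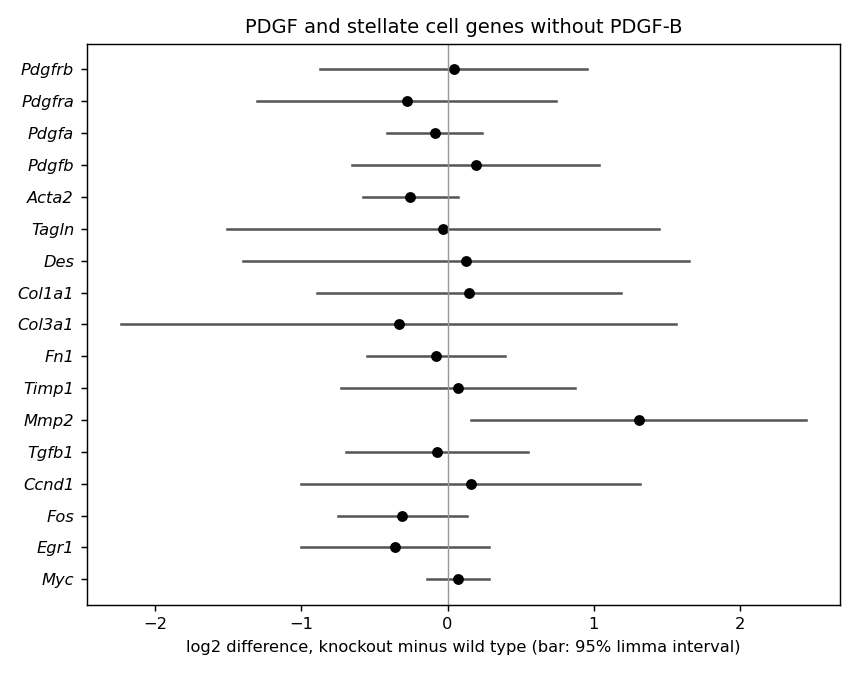
Points are log2 differences between knockout and wild type without PDGF-B for genes of the PDGF system and of stellate cell activation, and bars are 95% intervals from limma (3 arrays per genotype). All of the intervals include 0 except that of Mmp2 (0.16 to 2.45), and they are widest for Col3a1, Des and Tagln. The narrow interval of Myc belongs to a probe close to background.

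After Cd300ld and Twistnb, the lower genes with the smallest p were led by Parvg, which encodes gamma-parvin, an actin-binding adhesion protein of blood cells. Parvg had 6.42, 6.34 and 6.02 in the knockout and 7.02, 7.12 and 6.93 in the wild type, without overlap, a difference of -0.77 (SE 0.127). Sema5a, a guidance protein of the semaphorin family, differed by -0.47 (SE 0.0854), though its 2 dimmest kept probes gave differences under 0.1 in size. Vcam1, an adhesion receptor for leukocytes, had 9.43, 9.52 and 9.55 against 9.93, 9.80 and 9.83, a difference of -0.35 (SE 0.0798). Its 2 dimmer kept probes gave -0.05 and 0.04, so the probes disagreed.

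The remaining lower genes named by rank were Cybc1, needed for the phagocyte oxidase, at -0.63 (SE 0.152), Tmem68 at -0.38 (SE 0.0805), Marco, a scavenger receptor of macrophages, at -0.38 (SE 0.0958), Tnfaip3, which restrains NF-kappaB signalling, at -0.33 (SE 0.0845), and the ubiquitin ligase gene Marchf7 at -0.28 (SE 0.0679). By size, Socs2, an inhibitor of growth hormone signalling, was at -0.67 (SE 0.228) and Heph, a copper-dependent iron oxidase, at -0.65 (SE 0.215). None of these groups overlapped, which the choice by size required and a small p favours, and each adjusted p was 1. Heph was close to background in the knockout, at 6.13, 6.05 and 5.95, against 6.21, 6.87 and 7.01 in the wild type. Its other kept probes, dimmer still, gave -0.50 and -0.11.

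On the higher side, Lrba, a protein of vesicle traffic, had 7.81, 7.75 and 7.81 in the knockout and 7.28, 7.43 and 7.29 in the wild type. The groups lay apart, with little spread in either, and the difference was 0.45 (SE 0.0777, adjusted p = 1). The other kept Lrba probe, close to background, gave -0.08. Acta1, skeletal muscle actin, had 8.72, 8.09 and 8.31 against 7.43, 6.87 and 7.62, a difference of 1.06 (SE 0.246). Mmp2, the gelatinase that degrades basement membrane collagen, had 11.29, 10.36 and 10.43 against 8.41, 9.75 and 9.99. All 3 knockout values exceeded all wild-type values, P11 being far the lowest, and the difference of 1.31 (SE 0.47) was the greatest positive one among the genes tested.

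Other genes ranked by p on this side differed by less. Stag3, a cohesin subunit of meiotic cells, was at 0.43 (SE 0.0945), and Map1lc3a, which marks autophagosomes, was at 0.43 (SE 0.108). The ribosomal proteins Rps10 and Rplp0 were at 0.34 (SE 0.0847) and 0.32 (SE 0.0804). H2ac18, a core histone gene, was at 0.43 (SE 0.11), Aprt, of purine salvage, at 0.35 (SE 0.0944), Ndufaf1, an assembly factor of respiratory complex I, at 0.32 (SE 0.088), and Ttll1, a tubulin polyglutamylase subunit, at 0.30 (SE 0.0739). By size, Tpbg was at 0.69 (SE 0.223), Ptprv at 0.66 (SE 0.269) and Aebp1, a collagen-binding matrix protein, at 0.65 (SE 0.227). The groups of all these genes did not overlap, which the choice by size required and a small p favours, and every adjusted p was 1. The other kept probes of H2ac18 gave 0.14 and -0.05. Of 42 genes named by rank, size or panel, 17 had more than 1 kept probe, and in 9 of those all probes gave the same sign.

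The genes of myofibroblast contraction did not separate the genotypes. Acta2, alpha smooth muscle actin, was among the brightest signals, with 13.75, 14.02 and 13.54 in the knockout and 14.05, 13.97 and 14.05 in the wild type (difference -0.25, SE 0.133, 95% interval -0.58 to 0.07). Its 3 other bright probes gave -0.40, -0.44 and -0.22 with much more spread, being highest in P524 and P530 and lowest in P522. Tagln, a calponin-related actin-binding protein, had 10.10, 9.02 and 7.92 in the knockout and 9.24, 8.29 and 9.61 in the wild type, and the difference of -0.03 had an SE of 0.606. Of 21 contractile genes, 5 were higher and 16 lower, none past the adjusted threshold and none without overlap. Their median of -0.10 became 0.19 without P522 and 0.12 without P530, and the mean level of the list was 11.19 in P524 and 9.93 in P522, on both sides of the wild-type range of 10.18 to 11.02.

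Fibrillar collagen RNA varied in the same way. Col1a1 had 10.69, 9.63 and 9.32 in the knockout and 9.12, 10.12 and 9.97 in the wild type (difference 0.14, SE 0.426). Col3a1 had 11.49, 9.86 and 8.86 against 9.26, 10.98 and 10.98 (difference -0.33, SE 0.779). P524 was highest and P11 or P522 lowest for both genes, and the groups overlapped. Of 11 collagens, 6 were higher and 5 lower, with a median of 0.00, and Col14a1, a collagen that decorates fibrils, was the only one without overlap, at -0.36 (SE 0.143).

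Of 20 matricellular proteins and matrix glycoproteins, 9 were higher and 11 lower. Dcn, decorin, which binds collagen fibrils and TGF-beta, had 12.31, 12.78 and 12.22 in the knockout and 13.03, 13.10 and 12.81 in the wild type. Its groups did not overlap, P338 lying just under P530, and the difference was -0.55 (SE 0.172, adjusted p = 1). Tnc, tenascin C of injured tissue, differed by -0.49 (SE 0.24) and Fn1, fibronectin, by -0.08 (SE 0.194). Of 13 genes of collagen processing and crosslinking, 8 were higher and 5 lower, with Lox, lysyl oxidase, at 0.59 (SE 0.534) and Pcolce, an enhancer of procollagen cleavage, at 0.36 (SE 0.206). Of 15 basement membrane genes, 9 were higher and 6 lower, with a median of 0.09 that turned to -0.01 under median scaling.

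Of 18 metalloproteinases and inhibitors, 7 were higher and 11 lower, and Mmp2 was the only one without overlap. Mmp10, a stromelysin, differed by -1.13 (SE 0.869) and Mmp13, a collagenase, by -0.62 (SE 0.481), both with broad overlap. Timp1, the inhibitor induced in liver fibrosis, differed by 0.07 (SE 0.329). Genes of TGF-beta signalling gave 8 higher and 15 lower of 23, with Tgfb1 at -0.07 (SE 0.256) and its receptor gene Tgfbr2 at -0.28 (SE 0.204). Of 17 genes of quiescent stellate cells and retinoid handling, 5 were higher and 12 lower, and apart from Dcn the groups of all of them overlapped. Des, desmin, spanned 7.17 in P522 to 9.49 in P524 (difference 0.13, SE 0.626).

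Genes that respond quickly to growth factor signals had lower knockout means in most cases. Of 16 immediate-early factors, 5 were higher and 11 lower, with a median of -0.16 that ran from -0.26 to -0.08 with 1 array left out. Fos had 8.23, 8.11 and 8.54 in the knockout and 8.91, 8.54 and 8.36 in the wild type (difference -0.31, SE 0.181), and Egr1 had 9.42, 9.20 and 10.14 against 10.15, 9.68 and 10.02 (difference -0.36, SE 0.264). The groups of both overlapped, since P522 reached the wild-type range. Klf2, a factor also known from endothelial cells and macrophages, differed by -0.32 (SE 0.126) without overlap. Myc differed by 0.07 (SE 0.0869).

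Dusp6, the phosphatase that ERK signalling induces to limit itself, had 10.14, 10.30 and 10.21 in the knockout and 10.81, 10.43 and 10.54 in the wild type. Its groups did not overlap, the difference was -0.37 (SE 0.119), and the adjusted p was 1. It was the only one of 18 ERK feedback genes and ETV factors without overlap. Of the 18, 4 were higher and 14 lower, with a median of -0.05 (-0.13 without P393, -0.12 without P522) and Etv1 at -0.67 (SE 0.383). FoxO targets, which PI3-kinase signalling holds down, gave 8 higher and 10 lower of 18. Gadd45a, a stress-induced growth inhibitor, was at 0.29 (SE 0.142) and Foxo3 at 0.12 (SE 0.0781), both without overlap.

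NF-kappaB targets leaned to the lower side, 15 of 17, with a median of -0.10 that became -0.02 without P524. The 3 without overlap, Vcam1, Tnfaip3 and Nfkb2 (-0.28, SE 0.104), make 17.6% of the list, where 2.32% of all genes lay wholly lower. Macrophage markers leaned the same way, 19 of 21 lower with a median of -0.26, which became -0.03 without P524, and the list's mean level in P524 was lowest for both lists. The part of the macrophage markers in these results was not tested. Of 23 chemokines and cytokines, 7 were higher and 16 lower, with Il6 at -0.59 (SE 0.387) and Cxcl1 at -0.60 (SE 0.538), both overlapping. Of 21 interferon response genes, 11 were higher and 10 lower, and Bst2, a virus tether, was at 0.73 (SE 0.385) with overlap. Of 23 histocompatibility genes, 6 were higher and 17 lower, with a mean level lowest in P524, at 7.82 against 8.07 to 9.07 in the wild type.

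Genes of DNA replication had higher knockout means in most cases. Of 28 genes of the G1/S transition, 25 were higher (89.3%, against 53.7% of all genes) with a median of 0.21, and none passed the adjusted threshold. E2f1, which drives S-phase genes, had 8.73, 8.71 and 8.70 in the knockout and 8.32, 8.60 and 8.53 in the wild type, a difference of 0.23 (SE 0.0947) without overlap. Rfc5, of the clamp loader, had 7.47, 7.36 and 7.09 against 7.04, 7.01 and 6.86, and its difference was 0.34 (SE 0.123). Ccne1, cyclin E1, differed by 0.21 (SE 0.0877), also without overlap. In all, 5 of 28 did not overlap in the higher direction, 17.9%, against the background of 3.59%.

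The mean level of the G1/S list nevertheless overlapped between genotypes. It was 7.83 in P524, 7.83 in P338 and 7.61 in P522, against 7.46 in P11, 7.82 in P393 and 7.39 in P530. Wild-type P393 stood with the knockout arrays P524 and P338. The median stayed between 0.15 and 0.29 when any single array was left out and was 0.15 under median scaling.

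Mitotic genes had a mean level of 7.77 in P524, 7.74 in P338 and 7.27 in P522, against 7.36, 7.73 and 7.14 in the wild type, so the groups overlapped. Of 23, 19 were higher, with a median of 0.23 that became 0.06 without P530 and 0.44 without P522. Birc5, survivin, differed by 0.53 (SE 0.337) and Foxm1, a mitotic transcription factor, by 0.26 (SE 0.149), both overlapping. Plk1, a mitotic kinase, went the other way, with 6.15, 6.16 and 6.04 against 7.31, 6.39 and 6.16. Among 15 D cyclins and inhibitors of cyclin-dependent kinases, 8 were higher and 7 lower. Ccnd1, cyclin D1, differed by 0.16 (SE 0.475), Ccnd2 by -0.26 (SE 0.117) and the inhibitor Cdkn2c by 0.36 (SE 0.151).

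Cholesterol synthesis and uptake genes had lower knockout means in 16 of 18 cases, with a median of -0.34, and none without overlap. The list's mean level was 8.03 in P524, 8.02 in P338 and 7.19 in P522, against 7.94, 8.01 and 8.20 in the wild type. P522 alone was low, and without it the median was -0.01. Sqle, squalene epoxidase, had 9.50, 9.50 and 8.45 in the knockout and 9.50, 9.48 and 10.15 in the wild type, which shows the same pattern. Nsdhl, a later enzyme of the pathway, differed by -0.63 (SE 0.319) and Idi1 by -0.44 (SE 0.185). Fatty acid synthesis genes gave 3 higher and 10 lower of 13, also with their lowest level in P522.

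Other metabolic and stress lists had medians from -0.10 (NRF2 targets) to 0.10 (p53 targets), against 0.01 for all genes. Several of them leaned to 1 side. Oxidative phosphorylation gave 18 higher and 8 lower of 26 with a median of 0.10, among them Cox4i1, a cytochrome oxidase subunit, at 0.15 (SE 0.0766) without overlap. NRF2 targets gave 4 higher and 14 lower of 18, with Gclc, of glutathione synthesis, at -0.16 (SE 0.0752). Of 19 genes of the amino acid stress response, 10 were higher and 9 lower, and the glutamine transporter Slc38a2 was at -0.36 (SE 0.123) without overlap. Of 19 genes of the unfolded protein response and secretion, 8 were higher and 11 lower, with the translocon gene Sec61a1 at 0.27 (SE 0.0875) without overlap. Hypoxia and glycolysis genes gave 7 higher and 12 lower of 19, and p53 targets 10 higher and 3 lower of 13.

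Integrins and adhesion genes gave 8 higher and 10 lower of 18, and paracrine growth factors 5 higher and 15 lower of 20. The growth factor list had a mean level of 7.49 to 7.60 in the knockout and 7.61 to 7.71 in the wild type. It and the CD300 receptors were the only ones of 42 lists whose mean level did not overlap between genotypes, both lower. With no difference at all, exact permutation would separate the groups completely for a share of 0.1 of lists. A lack of overlap alone therefore does not mark a list as differing. The growth factor groups were barely apart, with P524 at 7.605 and P11 at 7.613. The CD300 mean includes Cd300ld; over the other 5 measured receptors, an alternative added after seeing the data, it was 6.42, 7.15 and 7.43 in the knockout and 7.40, 7.34 and 7.04 in the wild type, which overlap. No single growth factor was without overlap. Of the 42 lists, 41 held no gene past the adjusted threshold, the exception being the CD300 receptors through Cd300ld.

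**Figure D5:**
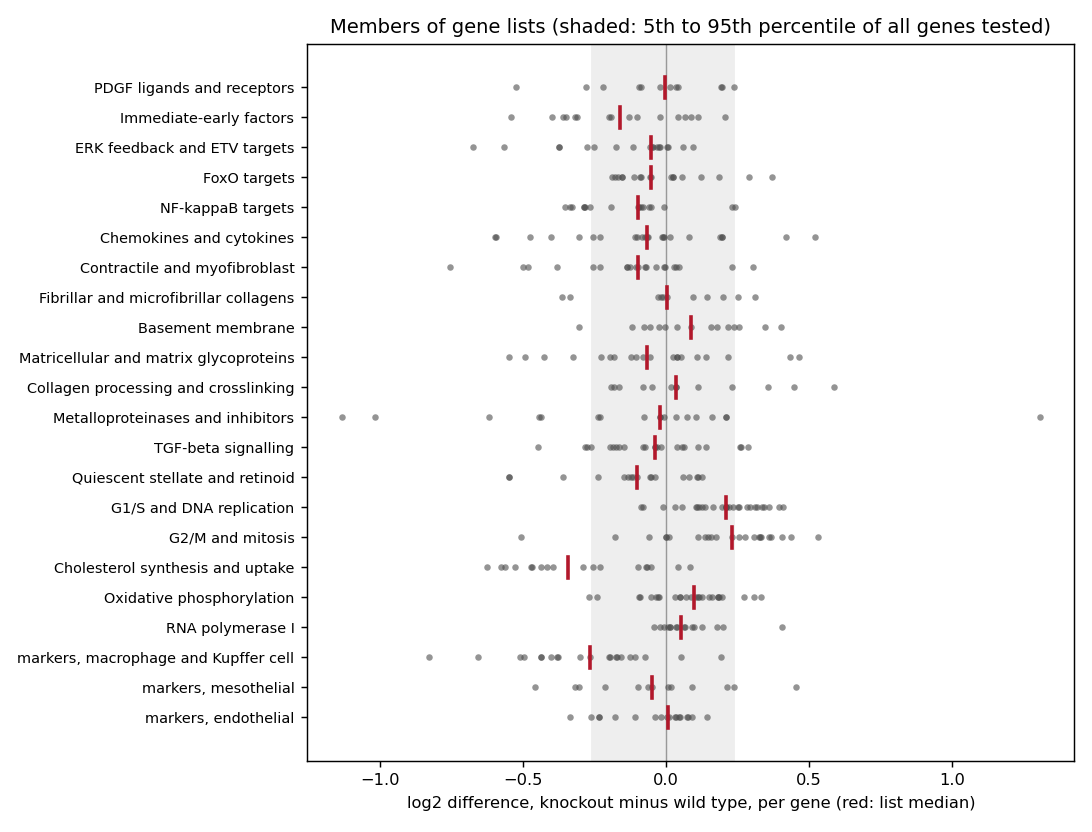
Each point is a gene of the list named on the vertical axis, placed at its log2 difference between knockout and wild type without PDGF-B. Red ticks are list medians, and the shading runs from the 5th to the 95th percentile of all genes tested (-0.257 to 0.237). The medians of G1/S (0.21) and G2/M (0.23) lie to the right, and those of cholesterol genes (-0.34) and macrophage markers (-0.26) to the left.

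Beyond the genes ranked above, those at least 1 log2 unit apart were named after their values were seen, 17 in all. Only 6 of them reached an unadjusted p under 0.05, and 3 of the 7 higher and 3 of the 10 lower genes did not overlap. Spon2, a matrix protein that binds bacteria and integrins, was one of these, with 8.67, 8.99 and 8.14 in the knockout and 8.99, 10.88 and 9.34 in the wild type. It differed by -1.14 (SE 0.515), and P338 and P11 were level to within 0.01. Fxyd6, a regulator of the sodium pump, had 11.71, 10.69 and 10.84 against 9.0, 10.41 and 10.63 (difference 1.07, SE 0.493).

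Thy1, a surface protein of fibroblasts, had 9.75, 8.67 and 10.25 in the knockout and 7.99, 8.41 and 8.67 in the wild type, a difference of 1.20 (SE 0.417) in which P338 and P530 met. Gpr137b-ps, annotated as a pseudogene of a lysosomal membrane protein, had 5.96, 6.33 and 6.98 in the knockout and 9.11, 9.59 and 6.57 in the wild type. Its difference of -2.0 (SE 0.8) rested on P11 and P393, as P530 lay inside the knockout range.

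Several of the largest differences came from 1 preparation. Aqp1, a water channel, was at 11.07 in P522 and between 6.73 and 7.30 in the other 5. Crabp1, which binds retinoic acid, was at 9.69 in P522 and between 5.95 and 6.07 elsewhere. Grem1, an antagonist of bone morphogenetic proteins, was at 11.46 in P522 and at no more than 7.86 elsewhere. Their knockout means exceeded the wild-type means by 1.21, 1.21 and 1.07, with SEs of 1.17, 1.01 and 1.26.

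The lower genes of this size were likewise spread among preparations. Ednrb, an endothelin receptor of stellate and endothelial cells, ranged from 6.32 in P524 to 9.20 in P338 within the knockout (difference -1.16, SE 0.735). The myeloid lectin gene Clec4n, the coagulation factor gene F13a1 and the macrophage elastase gene Mmp12 were lowest of all in P524, at 7.12, 8.27 and 8.02, and differed by -1.04 (SE 0.714), -1.04 (SE 0.624) and -1.02 (SE 0.861). Masp1, a protease of the lectin complement pathway, differed by -1.0 (SE 1.13). The groups of all 5 overlapped.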

How the data were processed

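The authors deposited non-normalized probe intensity for 12 arrays and a normalized table of the same probes; the normalization method was not given in the sources used here, and its column medians are 90.9 to 91. Detection p-values were estimated from the dim side of each array's distribution. The deposited intensity was corrected with normexp (offset 50), quantile normalized over the 12 arrays and taken to log2. Of 45281 probes, 22841 above background (p under 0.05 on at least 3 of the 6 arrays) were kept. GEO's platform annotation gives 34885 probes 1 symbol, 18 several and 10378 none, and 34807 matched a RefSeq gene ID. The brightest kept probe stands for a gene (4823 genes had more than 1). Median raw intensity was 88.2 to 96.2 per array; the number of arrays limits the precision.

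Genotypes were compared with limma 3.58.1 in R 4.3.3 on the 6 arrays without ligand, with Benjamini-Hochberg adjustment over 12043 genes. Same-coded arrays with and without ligand deviated together from their group means (r = 0.59 to 0.93), so the codes pair them, and the paired arrays enter only as alternatives. The scripts were tested on simulated data. Named genes were all past the threshold, the 10 with the smallest p and the 5 largest non-overlapping differences at unadjusted p under 0.05 in each direction (provisional names left out), a fixed panel, up to 4 members per list by p, and a called gene's family and neighbours. Members, lists and panel were chosen with earlier results of these data known, so list counts and medians are descriptions. Alternatives covered background correction, scaling, filters, probe summary, the fit and left-out arrays. The panel gene Lrat, below background, has no value here, and 1 panel gene is not reported here.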

Additional observations from a re-analysis of the deposited data

How the results depend on the processing

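Cd300ld kept its direction under all 19 alternatives, from -3.48 to -2.38, and passed the adjusted threshold in 11 of them. The number of genes called, 1 as reported, was 0 with median scaling, where the smallest adjusted p was 0.287, and 0 with the mean of both arrays of a preparation, where it was 0.13. It was 0 whichever array was left out, and 2 with the replicate block or with each kept probe tested, Twistnb being the second gene in both. The replicate block changed no other call. The cause of these changes was not tested, and the fits with an array left out also had fewer arrays.

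Genes higher at an unadjusted p under 0.05 numbered 109 as reported, 14 with median scaling, 256 with no filter, 170 with all 12 arrays as 4 group means, 69 with the mean of both arrays, 557 with array weights and 91 to 441 with 1 array left out. The lower ones numbered 75 as reported, 154 with no filter, 407 with array weights and 71 to 241 with 1 array left out. No filter tested 19057 genes. The highest left-out counts were those without P522.

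Of 100 named genes, 22 changed sign under some alternative, none of them with an adjusted p under the threshold. Array weights gave -0.388 for Ccnd1, -0.121 for Col1a1, -0.538 for Pdgfrb, 0.00575 for Cd300a, 0.104 for Ednrb, -0.0655 for Lox, -0.00672 for Pcolce, -0.00118 for Pdgfc and -0.157 for Twist1. The mean of both arrays gave 0.0612 for Fn1, -0.0286 for Pdgfrb and 0.0135 for Tagln, and median scaling gave -0.0486 for Pdgfrb. With 1 array left out, differences ran from -0.337 to 0.51 for Ccnd1, -0.26 to 0.426 for Col1a1, -1.04 to 0.269 for Col3a1, -0.316 to 0.842 for Des, -0.254 to 0.104 for Fn1, -0.192 to 0.485 for Pdgfb, -0.689 to 0.182 for Pdgfra, -0.228 to 0.366 for Pdgfrb and -0.575 to 0.515 for Tagln. They ran from -0.282 to 0.113 for Tgfb1, -0.146 to 0.454 for Timp1, -0.224 to 1.93 for Aqp1, -0.67 to 0.135 for Cd300a, -0.533 to 0.00864 for Cd300lb, -0.0376 to 1.83 for Crabp1, -0.0154 to 0.0904 for Ferd3l and -0.404 to 2.09 for Grem1. Of 873 list medians under alternatives, 863 moved by less than the spread between replicates. A move of that size could still change the sign. Medians ran from -0.405 to 0.187 for contractile genes, -0.315 to 0.166 for histocompatibility genes and -0.367 to 0.611 for mesothelial markers. Other lists, such as G1/S (0.149 to 0.289), kept their sign under all 19 alternatives. Between 48.2% and 52.8% of probes were above background per array, and dim probes have compressed differences under the offset.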

Other observations

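Larger gene families, grouped by the start of their symbols, were chosen after their values were seen and carry no test. Cytoplasmic ribosomal protein genes had higher knockout means in 47 of 58 cases, with a median difference of 0.09, and 12 of them (20.7%, against 3.59% of all genes) did not overlap between genotypes in the higher direction. Mitochondrial ribosomal protein genes were higher in 62 of 72 cases (median 0.12, 7 without overlap, all higher), and genes named for subunits and assembly factors of respiratory complex I in 38 of 41 (median 0.16, 6 without overlap, all higher). Histone genes were higher in 40 of 49 cases, with a median of 0.26, and 6 were without overlap in the higher and 1 in the lower direction. None passed the adjusted threshold by limma, while 5, 4, 3 and 5 genes of these families were higher at an unadjusted p under 0.05, where 0.905% of all genes were.

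The mean level of the cytoplasmic ribosomal protein genes was 11.48 in P524 and 11.34 in both P338 and P522, and 11.33, 11.32 and 11.20 in the wild type, so the groups were apart by little. That of the histone genes was 8.71, 8.51 and 8.64 against 8.46, 8.42 and 8.32, also without overlap. The mitochondrial families overlapped. P524 was highest for each of the 4 families. The medians kept their sign under all 19 alternatives, from 0.04 to 0.12 for cytoplasmic ribosomal proteins, 0.05 to 0.19 for mitochondrial ones, 0.07 to 0.23 for complex I and 0.06 to 0.34 for histones.

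Other large families did not lean this way. Proteasome subunit genes were higher in 18 of 35 cases, solute carriers in 101 of 217 and zinc finger proteins named Zfp in 119 of 222, with medians of 0.00, -0.01 and 0.00.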
